A study of Mus musculus with 16 samples.

Results

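Cells sorted from untreated mouse liver as positive for the MIC1-1C3 antigen (M+) and for the antigen labelled 133 (133+) were compared with sorted cells negative for both (M-133-). MIC1-1C3 is a surface antigen of bile duct cells defined by a monoclonal antibody, and 133 is read here as CD133, the product of Prom1. The comparison took every untreated sample of these 2 sorts, which gave 6 samples on 8 arrays of the series' 14 samples on 16 arrays. The M+133+ group held 4 samples on 5 arrays and the M-133- group 2 samples on 3 arrays. All samples came from c129/S3 mice on a Purina 5015 diet, with no transgene named. Liver cells were freed with Accutase, passed through Percoll and sorted by flow cytometry into Trizol LS, and their RNA was amplified to cDNA, labelled with Cy3 and hybridised alone to an Agilent whole genome array. The remaining 8 samples were the same sorts from mice fed 0.1% DDC, a porphyrinogenic diet that injures bile ducts, for 2 weeks. They entered the model only to estimate the spread and for 1 comparison at the end. The labels call the replicates biological; the number of animals behind a sample and their age are not given in the sources used here, so p-values measure the spread between these samples.

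Bile duct cells (cholangiocytes) line the tubes that carry bile and change its composition on the way. They secrete chloride and fluid through the channels CFTR and ANO1, exchange chloride for bicarbonate with the anion exchanger AE2 (Slc4a2), and take back glucose from bile with the sodium-coupled carrier SGLT1 (Slc5a1). Hepatocytes take up bile acids, organic ions, fatty acids and amino acids from blood and carry most of the liver's urea synthesis, gluconeogenesis and drug metabolism. A sort negative for both antigens holds whatever else the preparation released, including endothelial, stellate and blood cells and residual hepatocytes. In such bulk samples, fewer cells of a type and less RNA per cell cannot be told apart.

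Levels below are log2 signals relative to the 75th percentile of each array, and differences are M+133+ minus M-133- on that log2 scale, with the standard error (SE) of a limma fit over all 14 samples. Prom1, the gene behind one of the sorting antigens, measured 1.72, 1.82, 1.13 and 1.67 in M+133+ cells against -7.74 and -8.35 in M-133- cells. The groups did not overlap, and the fitted difference was 9.63 ± 1.08 (SE, adjusted p = 9.02e-05). The 75th percentile signal was 1689.8 to 2732.2 intensity units on the M+133+ arrays, 602.8 on the array of M-133- sample 1, and 705.9 and 2080.8 on those of sample 2. Between 65.6% and 77.3% of probes were well above background. Pearson correlation across genes, which are not independent replicates, was 0.814 to 0.902 between samples of a group, 0.833 to 0.907 between repeat arrays of a sample and 0.674 to 0.763 between sorts. Slide 2 held arrays of M+133+ sample 1 and M-133- sample 2, and slide 4 of M+133+ sample 4 and M-133- sample 2; on the other slides the 2 sorts did not meet. M-133- sample 1 was on a slide of its own.

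Marker lists of liver cell types were read in the same samples. Of 12 bile duct markers, 10 were called higher in M+133+ cells and none lower. Their mean level ran from 2.51 to 3.46 in M+133+ cells and was -3.87 and -3.37 in M-133- samples 1 and 2. Epcam, an epithelial adhesion protein, differed by 10.19, and the duct keratins Krt19, Krt7 and Krt23 by 8.54, 4.21 and 7.75. In M-133- cells all 12 endothelial markers were called higher than in M+133+ cells, with mean levels of 4.17 and 4.54 against -2.26 to -0.40. Of 10 hepatocyte markers 9 were called lower in M+133+ cells, with mean levels of 4.68 and 3.48 in M-133- and of -2.48 to -1.19 in M+133+ cells. Albumin (Alb) differed by -1.85 ± 0.39 (SE, adjusted p = 0.00755). Stellate and fibroblast markers (4 of 12 lower in M+133+ cells) had mean levels of 0.93 and 1.14 against -2.83 to -1.20, and red cell and platelet markers (3 of 9 lower) -1.55 and -2.08 against -4.97 to -4.03. Macrophage markers (1 of 12 higher and 1 lower) parted the M-133- samples, with a mean of -0.56 in sample 1 and -4.87 in sample 2 against -5.15 to -4.66 in M+133+ cells. No array of M+133+ cells was well above background for the macrophage gene C1qc. Lymphocyte and neutrophil markers gave no call in either direction among 11 and 6 genes. The bile duct, endothelial and hepatocyte markers differed between the same 2 sorts as the lists below, and their part in the results was not tested. Calls in the endothelial, hepatocyte and stellate lists were lost without M-133- sample 1 and also without sample 2, that of Alb without sample 1. The median differences without sample 1 and without sample 2 were -6.24 and -5.42 for endothelial markers and -6.10 and -7.47 for hepatocyte markers. For stellate markers they were -2.31 and -3.03, and for bile duct markers 6.30 and 6.63.

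**Figure D1:**
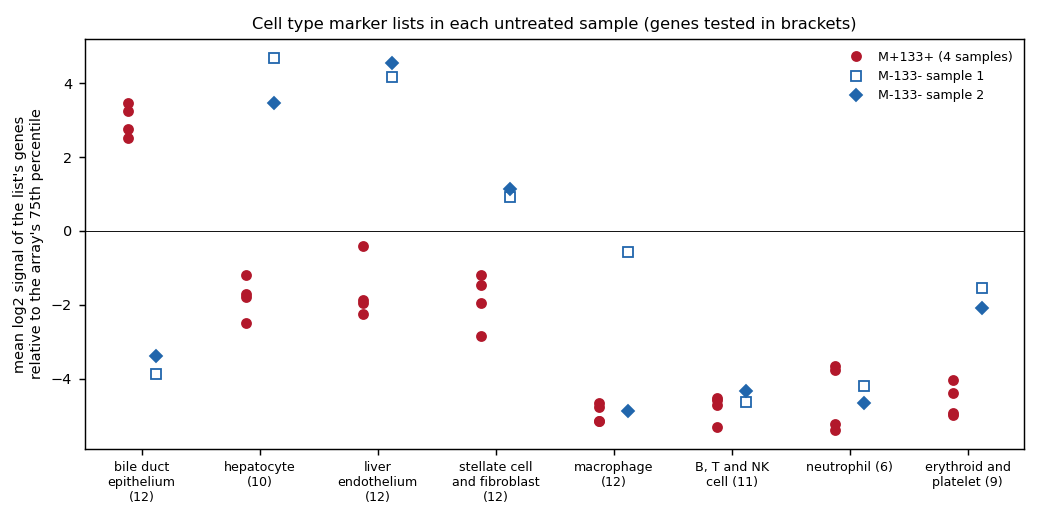
Mean log2 signal of the genes of each marker list, relative to the 75th percentile of the array, in each untreated sample: filled circles are the 4 M+133+ samples, the open square is M-133- sample 1 and the filled diamond M-133- sample 2. Bile duct markers lie between 2.51 and 3.46 in M+133+ cells, hepatocyte, endothelial and stellate markers lie higher in both M-133- samples, and macrophage markers lie high only in M-133- sample 1.

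Of 23306 genes tested, 2050 (8.80%) were called at an adjusted p under 0.05 (limma, Benjamini-Hochberg over all genes), 847 (3.63%) of them higher in M+133+ cells and 1203 (5.16%) lower. Without adjustment, 4548 genes had a p under 0.05. The median difference over all genes was -0.07, and 2046 of the called genes (8.78% of all tested) also had no overlap between the 6 samples, which 33.7% of all genes had. The M-133- group's 2 samples limit every call: of the 2050 genes, 739 were still called without M-133- sample 1, 970 without sample 2 and 525 without each in turn. By sign, 2011 called genes stayed the same within slide 2 and 2041 within slide 4, both of which use M-133- sample 2. With quantile normalization in place of the percentile, 1072 genes were higher and 1060 lower, and with normexp background correction 529 were higher and 1239 lower.

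Genes for 5 kinds of function were then read list by list: 408 transporters, 331 channels and pumps, 449 receptors, 438 transcription factors and 876 metabolic genes on the array, 2498 genes in all with each counted once, since 4 carriers stand among both transporters and metabolic genes. The filter on dim probes passed 2313 of them, 190 only through M+133+ samples, 107 only through M-133- samples and 41 only through samples after DDC. Beside the 3.63% higher and 5.16% lower of all genes, transporters had 5.70% higher and 10.4% lower (22 and 40 of 386), and channels and pumps 6.16% and 4.45% (18 and 13 of 292). Receptors had 4.38% higher and 8.76% lower (17 and 34 of 388) and transcription factors 7.18% in each direction (28 and 28 of 390). Metabolic genes had 2.32% higher and 23.9% lower (20 and 206 of 861). Passing the filter through 1 sort alone favours a difference toward that sort, without requiring one. Of the 105 members called higher and the 320 called lower, each counted once, 68 and 290 passed it in both sorts. Over all tested members, the median difference was -0.90 for metabolic genes. It was -0.20 for transporters, -0.22 for channels and pumps, -0.37 for receptors and -0.13 for transcription factors. Leaving out 1 or another of the M+133+ samples ended the call of 143 of the 425 genes called in these lists. With each of the 6 samples left out in turn, the larger part of the 425 lost the call and the smaller part kept it. Both kinds are given below. Counts in single lists are read beside the same 3.63% higher and 5.16% lower of all genes, and a count near those shares says nothing particular about its list. Members named beyond the rule given with the processing, among them Slc4a2, Cftr, Met and Csf1r, were chosen after their values were seen. With slide as a fixed block, 133 metabolic genes were called.

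**Figure D2:**
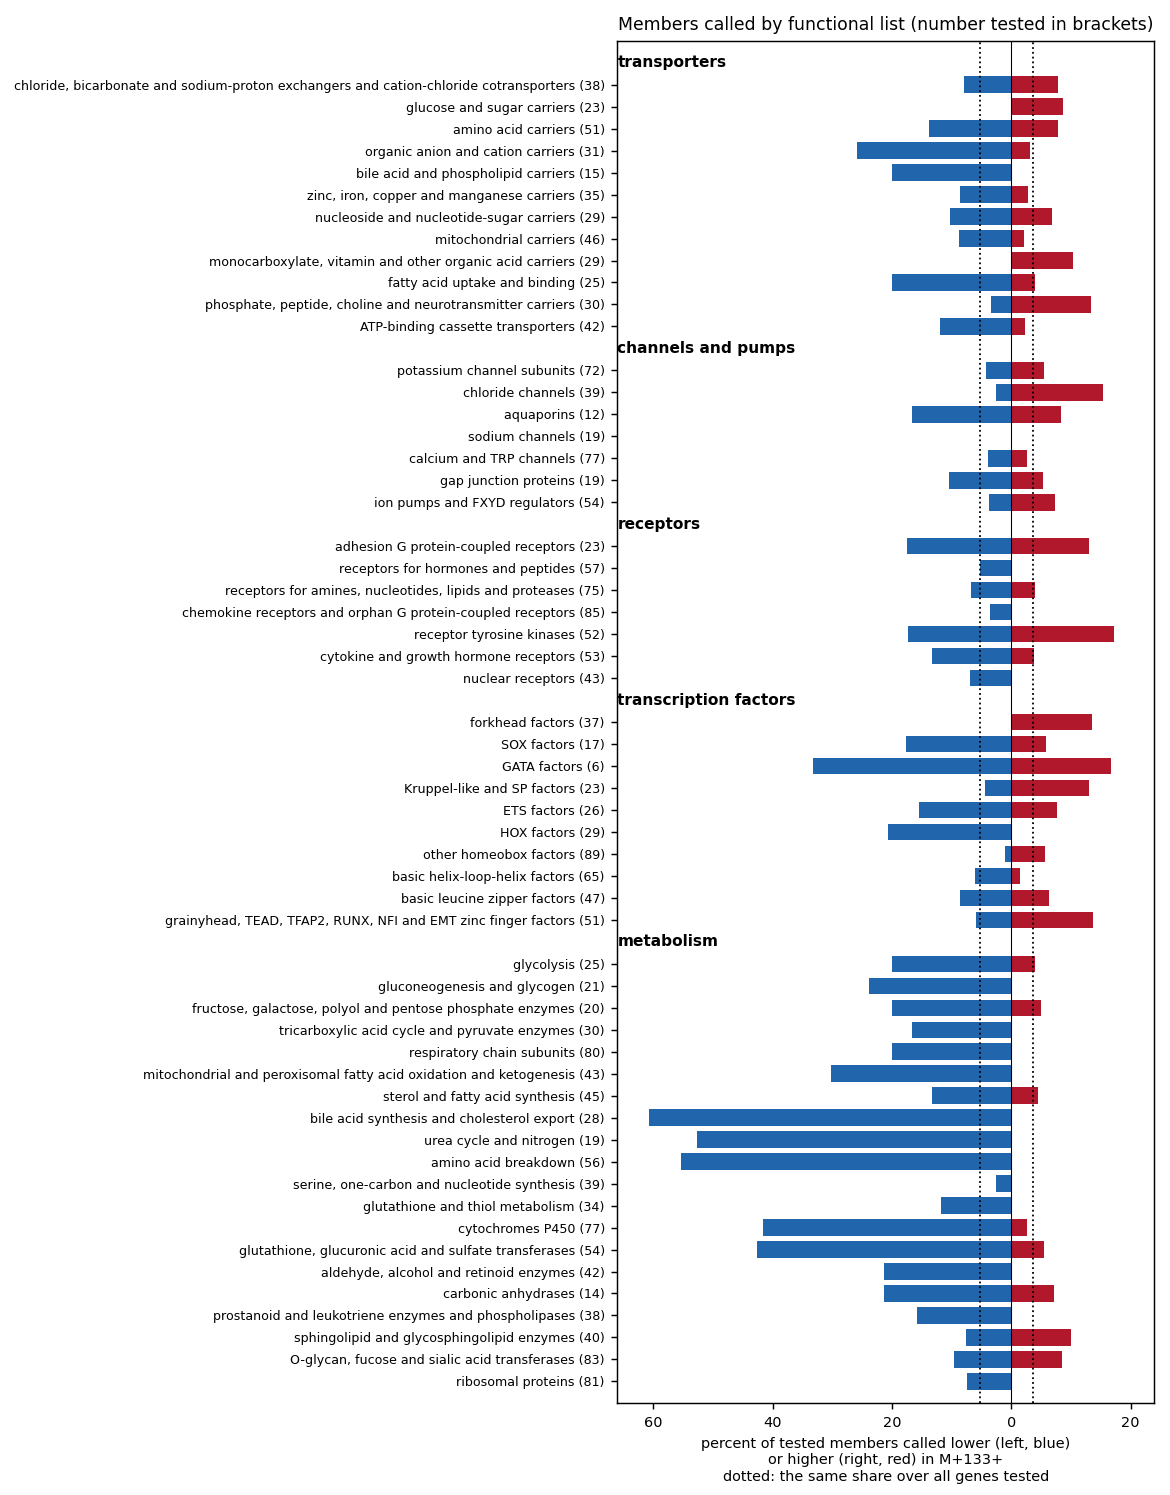
Share of the tested members of each functional list called lower (bars to the left) or higher (bars to the right) in M+133+ cells, in percent, with the number tested in brackets; dotted lines mark 5.16% and 3.63%, the shares over all genes tested. Bile acid synthesis, urea cycle and amino acid breakdown lists extend farthest to the left, and receptor tyrosine kinases, GATA factors (6 members) and chloride channels farthest to the right.

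Of 23 sugar carriers 2 rose in M+133+ cells and none fell, and of 29 nucleoside and nucleotide-sugar carriers 2 rose and 3 fell. Slc5a1, the sodium-glucose carrier SGLT1, measured 2.63, 2.65, 2.59 and 2.67 in M+133+ cells against -7.69 and -8.14 in M-133- cells. The 4 M+133+ samples lay at nearly the same level, far above both M-133- samples, and the difference was 10.55 ± 1.61 (SE, adjusted p = 8.90e-04). The Slc5a1 probe read was well above background on none of the 3 M-133- arrays, so that the difference at that probe is at least 388-fold. The Slc5a1 probe lies at chr5:33504561-33504620 in the array annotation (mm9), which gives no exon or untranslated region. Its difference was 12.09 within slide 2 and 9.93 within slide 4. The other sugar carrier called was the facilitative transporter GLUT1 (Slc2a1), at 3.32 ± 0.98 (SE, adjusted p = 0.0469). Slc28a3, a concentrative nucleoside carrier, measured 2.07, 2.27, 1.02 and 0.15 in M+133+ cells against -4.59 and -3.70 in M-133- cells, a difference of 5.53 ± 0.90 (SE, adjusted p = 0.00143), while the equilibrative nucleoside carrier Slc29a1 fell (-4.08). Slc6a6, the taurine carrier, differed by 2.31 and Slc44a3, a choline carrier-like protein, by 5.17. The calls of both held with each sample left out. Slc44a4 (5.53), the phosphate carrier Slc34a2 (5.27), the zinc carrier Slc39a4 (4.37) and the riboflavin carrier Slc52a3 (5.16) were also called higher. The calls of Slc2a1, Slc34a2 and Slc52a3 ended without either M-133- sample in turn (adjusted p 0.127 to 0.27), those of Slc29a1 and Slc39a4 without M-133- sample 2 (adjusted p 0.079 to 0.157), and that of Slc44a4 without M-133- sample 1 (adjusted p 0.0691). Slc2a1 lost the call without M+133+ sample 1, 2, 3 or 4, Slc34a2 without sample 1, 2 or 4, Slc52a3 without sample 1, 2 or 3, at adjusted p of 0.0501 to 0.119.

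For acid and base transport, 3 of 38 exchangers and cotransporters were called higher and 3 lower. AE2 (Slc4a2), the chloride-bicarbonate exchanger of the duct, measured 3.23, 3.35, 3.08 and 3.73 in M+133+ cells against 1.84 and 0.94 in M-133- cells. The groups did not overlap, and the difference of 1.96 ± 0.40 (SE, adjusted p = 0.00645) was the smallest of the 6 called in the list. The sodium-proton exchanger NHE2 (Slc9a2) measured 1.79, 1.91, -0.40 and -2.96 in M+133+ cells against -5.23 and -4.61 in M-133- cells, a wide spread within M+133+ cells, with a difference of 5.00 ± 1.23 (SE, adjusted p = 0.019). Slc12a8 differed by 5.64. The red cell anion exchanger AE1 (Slc4a1) fell by 5.89 on the log2 scale and the endosomal exchanger Slc9a9 by 5.19. The bicarbonate cotransporter Slc4a4 was at 3.49 (adjusted p = 0.154), a difference that did not pass the threshold. The call of Slc4a2 ended without M-133- sample 2 (adjusted p 0.0973), those of Slc9a2, Slc12a8 and Slc9a9 without either M-133- sample in turn (adjusted p 0.0684 to 0.16), and that of Slc4a1 without M-133- sample 1 (adjusted p 0.0797). Slc9a2 lost the call without M+133+ sample 1, at an adjusted p of 0.054.

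Of 31 organic anion and cation carriers 8 fell and 1, Slco3a1 (2.52), rose, with a list median of -0.76. The anion carrier Slco2b1 fell by 6.36 on the log2 scale, and the exporter Slc47a1 measured -8.67, -9.13, -1.51 and -8.82 in M+133+ cells against 1.10 and -0.41 in M-133- cells. Sample 3 of M+133+ cells stood above the other 3 for that gene. Of 15 bile acid and phospholipid carriers 3 fell and none rose. The bile salt export pump Abcb11 measured -7.18, -2.00, -3.69 and -6.55 in M+133+ cells against 6.33 and 1.73 in M-133- cells, a difference of -8.89 ± 2.18 (SE, adjusted p = 0.0187). The uptake carrier NTCP (Slc10a1) differed by -3.90. The ileal-type carrier ASBT (Slc10a2), which cholangiocytes are known to carry on the bile side, was at 4.36 (adjusted p = 0.321). The calls of Slco3a1, Slco2b1 and Abcb11 ended without M-133- sample 1 (adjusted p 0.145 to 0.415), and those of Slc47a1 and Slc10a1 without either M-133- sample in turn (adjusted p 0.10 to 0.235). Slco3a1 lost the call without M+133+ sample 3 or 4, Slc47a1 without sample 1, 2 or 4, Abcb11 without sample 1, Slc10a1 without sample 1, 2, 3 or 4, at adjusted p of 0.0503 to 0.0986.

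Fatty acid uptake parted by isoform. Slc27a2, the very long chain acyl-CoA synthetase FATP2, measured -4.74, -6.76, -2.52 and -5.51 in M+133+ cells against 2.93 and 2.87 in M-133- cells, a difference of -7.78 ± 1.35 (SE, adjusted p = 0.00214). Slc27a5, the bile acyl-CoA synthetase FATP5, differed by -5.66, the liver fatty acid binding protein Fabp1 by -5.01 and the acyl-CoA synthetase Acsl1 by -4.02. In the opposite direction Slc27a1 (FATP1) measured 2.26, 1.30, 2.65 and 1.06 in M+133+ cells against -5.79 and -3.88 in M-133- cells, a difference of 6.66 ± 0.82 (SE, adjusted p = 1.81e-04). All 5 of these genes kept their calls with each sample left out. In all, 1 of 25 members rose and 5 fell.

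Of 51 amino acid carriers 4 rose and 7 fell. The glutamine carrier SNAT3 (Slc38a3) measured -4.92, -5.28, -4.63 and -4.03 in M+133+ cells against 1.93 and 1.48 in M-133- cells, a difference of -6.42 ± 0.72 (SE, adjusted p = 9.60e-05) that held with each sample left out. The glutamate carrier Slc1a1 (5.40, with a further probe at 1.20) and Slc7a4 (4.25) rose. Slc16a10, an aromatic amino acid carrier, was called at 3.82 ± 0.99 (SE, adjusted p = 0.0261), but its other 2 probes gave differences of -0.87 and -0.83, so its probes disagree. Transferrin receptor 2 (Tfr2), an iron sensor of hepatocytes, measured -6.20, -6.93, -6.48 and -4.62 in M+133+ cells against 0.89 and 0.30 in M-133- cells, a difference of -6.65 ± 1.15 (SE, adjusted p = 0.00205). Of 46 mitochondrial carriers 4 fell, among them Slc25a47 (-8.43) and the glutamate carrier Slc25a22 (-6.91), and Slc25a24 (1.91) rose. Of 42 ABC transporters 5 fell, among them Abca8a (-6.10) and the export pump Abcb11 given above, and the multidrug exporter Abcb1a rose (at least 21.8-fold). The calls of Slc1a1, Slc7a4, Slc25a24 and Abcb1a ended without either M-133- sample in turn (adjusted p 0.0547 to 0.276), that of Slc16a10 without M-133- sample 2 (adjusted p 0.39), and those of Slc25a47 and Slc25a22 without M-133- sample 1 (adjusted p 0.0802 to 0.232). Slc1a1 lost the call without M+133+ sample 1, 2 or 3, Slc7a4 without sample 3, Slc16a10 without sample 1 or 4, Abcb1a without sample 1, 3 or 4, at adjusted p of 0.053 to 0.765.

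Chloride channels had 6 of 39 members called higher and 1 lower, with a median of 0.51; with normexp background correction that median was -0.21, beside -0.52 for all genes. Ano1, the calcium-activated chloride channel, measured 3.35, 2.67, 2.10 and 2.06 in M+133+ cells against -7.59 and -6.49 in M-133- cells. All 4 duct samples lay far above both M-133- samples, and the difference was 9.59 ± 0.81 (SE, adjusted p = 7.45e-06). Ano1 was well above background on 1 of the 3 M-133- arrays. The Ano1 probe lies at chr7:151775009-151775068 in the array annotation (mm9). Cftr, the cAMP-activated chloride channel, measured 1.55, 1.68, 2.35 and 1.83 in M+133+ cells against -2.92 and -2.29 in M-133- cells, a difference of 4.45 ± 0.77 (SE, adjusted p = 0.00208). Clic6, a chloride intracellular channel protein, differed by 7.70 ± 0.79 (SE, adjusted p = 4.15e-05). The anoctamins Ano9 (at least 84.7-fold) and Ano6, a lipid scramblase (4.61), were also higher. All 5 kept their calls with each sample left out. Ttyh1 was the sixth gene to rise (4.42), and Lrrc8c, a subunit of the volume-regulated anion channel, was the one that fell (-4.83). The calls of Ttyh1 and Lrrc8c ended without either M-133- sample in turn (adjusted p 0.0584 to 0.415). Ttyh1 lost the call without M+133+ sample 1, 2, 3 or 4, at adjusted p of 0.0729 to 0.0921.

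Potassium channels were called in both directions, 4 of 72 higher (5.56%) and 3 lower (4.17%). Kcnk1 (TWIK-1), a two-pore-domain leak channel, measured 2.72, 2.29, 2.33 and 2.73 in M+133+ cells against -7.85 and -8.49 in M-133- cells, a difference of 10.69 ± 0.76 (SE, adjusted p = 2.09e-06). Kcnk1 was well above background on none of the 3 M-133- arrays, so that the difference is at least 358-fold. The Kcnk1 probe lies at chr8:128554281-128554340 in the array annotation (mm9). Kcnk5 (TASK-2), an alkali-activated leak channel, measured 2.14, 2.03, 1.11 and 0.65 in M+133+ cells against -4.74 and -6.18 in M-133- cells, a difference of 6.94 ± 0.97 (SE, adjusted p = 4.71e-04). The calcium-activated channels Kcnn4 (5.66) and Kcnma1 (at least 10.5-fold) rose as well. All 4 held with each sample left out. Kcns3 (-7.26), Kcnj8 (-7.45), a vascular subunit, and Kcnj15 (-3.42) fell. The calls of Kcns3 and Kcnj15 ended without either M-133- sample in turn (adjusted p 0.0617 to 0.11), and that of Kcnj8 without M-133- sample 1 (adjusted p 0.555). Kcnj8 lost the call without M+133+ sample 1, 2 or 4, at adjusted p of 0.0547 to 0.099.

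Water channels and subunits of the sodium pump were called in both directions. Aqp9, the glycerol and water channel of hepatocytes, measured -6.24, -8.28, -3.78 and -4.59 in M+133+ cells against 1.35 and 1.78 in M-133- cells, a difference of -7.29 ± 1.41 (SE, adjusted p = 0.00451). Aqp8 fell (-5.28) and Aqp5, a water channel of secretory glands, rose (5.06). Aqp1, long known in duct cells and also abundant in endothelium, was at -2.38 (adjusted p = 0.183), with 4.08 to 4.71 in M+133+ cells and 7.10 and 6.65 in M-133- cells. Of the sodium-potassium pump, Atp1b1 rose (3.95) and Atp1b3 fell (-1.59). Fxyd3, a small regulator of that pump, measured 2.92, 2.66, 2.17 and 1.90 in M+133+ cells against -7.64 and -5.18 in M-133- cells, a difference of 8.82 ± 1.15 (SE, adjusted p = 2.72e-04). Fxyd5, a relative of it, measured -3.14, -2.47, -1.65 and -1.73 in M+133+ cells against 2.68 and 3.58 in M-133- cells, a difference of -5.38 ± 0.88 (SE, adjusted p = 0.00148). The gap junction proteins Gjb2 of hepatocytes (-3.75) and Gja4 of endothelium (-6.31) fell. Among 77 calcium and TRP channels, 2.60% were called higher and 3.90% lower. The polycystin Pkd2 (1.82) and Tmc4 (4.97) rose, and the mechanosensitive channel Piezo1 (-2.49) and Tmc3 (-4.27) were among those that fell. Of 19 sodium channels none was called in either direction by limma, and their values do not show them to be equal. The calls of Aqp8, Aqp5, Gjb2, Pkd2, Tmc4 and Piezo1 ended without M-133- sample 1 (adjusted p 0.0944 to 0.483), that of Atp1b3 without M-133- sample 2 (adjusted p 0.0655), and that of Gja4 without either M-133- sample in turn (adjusted p 0.0602 to 0.0756). Piezo1 lost the call without M+133+ sample 1, 2 or 4, Tmc3 without sample 2, 3 or 4, at adjusted p of 0.0721 to 0.106. Without M-133- sample 1 Tmc3 did not pass the filter and was not tested.

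**Figure D3:**
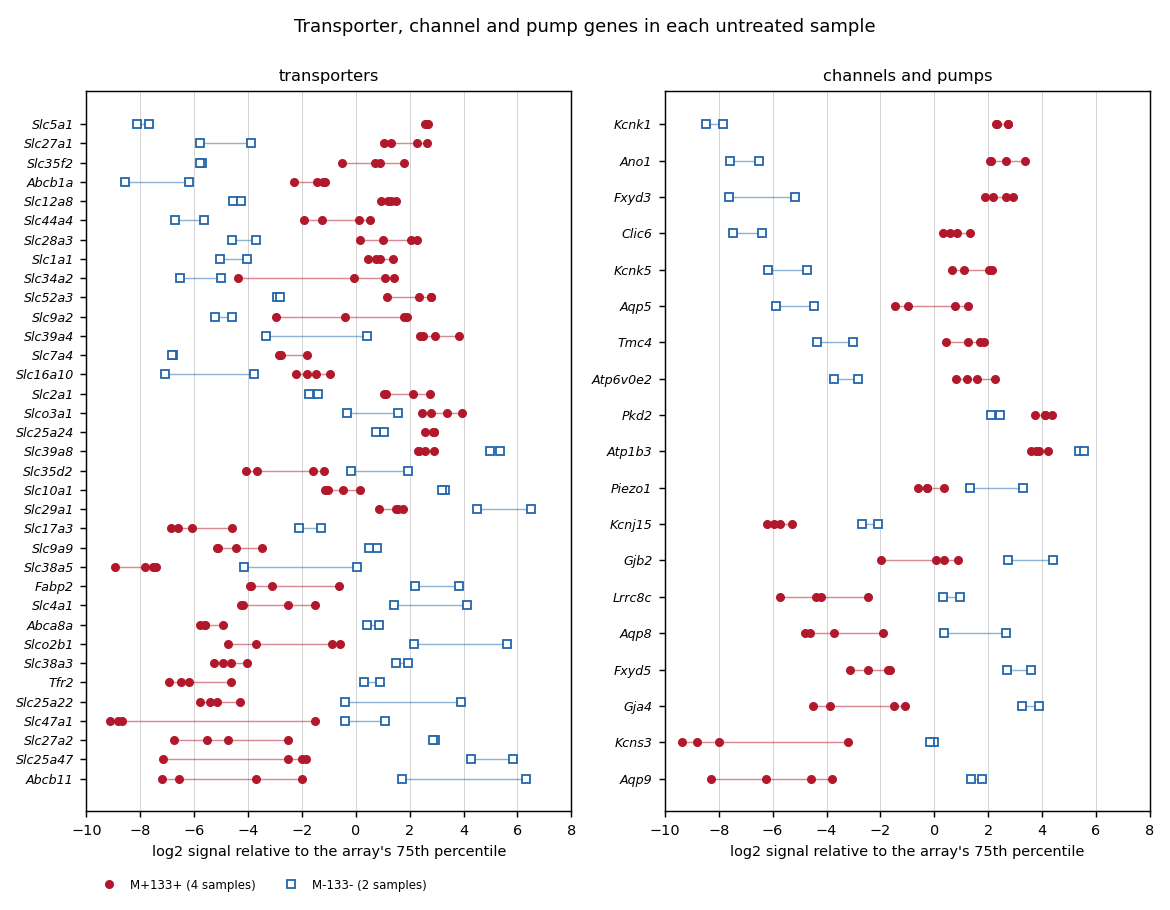
Log2 signal relative to the array's 75th percentile for named transporter genes (left panel) and channel and pump genes (right panel), ordered by difference: filled circles are the 4 M+133+ samples and open squares the 2 M-133- samples. The genes were chosen among called genes whose groups do not overlap, so the gap is part of the choice. The lowest values are signals close to background, which have no order.

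The G protein-coupled receptors F2rl1 and Adgrg7 showed the largest increases of all called genes. F2rl1, the protease-activated receptor PAR2, measured 4.18, 3.77, 3.59 and 4.04 in M+133+ cells against -7.72 and -8.25 in M-133- cells, a difference of 11.88 ± 2.13 (SE, adjusted p = 0.00258). F2rl1 was well above background on none of the 3 M-133- arrays, so that the difference is at least 929-fold. The F2rl1 probe lies at chr13:96282038-96282097 in the array annotation (mm9). Adgrg7, an adhesion receptor of epithelia, measured 4.88, 4.21, 3.57 and 2.80 in M+133+ cells against -7.60 and -7.58 in M-133- cells, a difference of 11.46 ± 1.06 (SE, adjusted p = 1.70e-05). Adgrg7 was well above background on none of the 3 M-133- arrays, so that the difference is at least 912-fold. Both kept their calls with each sample left out. The nucleotide receptor P2ry2, which triggers chloride secretion in duct cells, differed by 5.95, and the lysophosphatidic acid receptor Lpar2 by at least 21.9-fold. The adhesion receptors Adgrf1 (4.30) and Adgrl3 (at least 10.8-fold) also rose, though a further probe of Adgrl3 gave a difference of 0.44. Among the falls, the cannabinoid receptor Cnr2 measured -4.50, -4.93, -5.87 and -6.10 in M+133+ cells against 2.50 and 3.56 in M-133- cells, a difference of -8.38 ± 1.09 (SE, adjusted p = 2.77e-04). The endothelial receptors Adgrl4 (-8.12) and Adgra2 (-6.05) and the chemokine scavenger Ackr1 (-8.00) fell as well. The calls of P2ry2 and Ackr1 ended without M-133- sample 1 (adjusted p 0.0888 to 0.259), those of Lpar2, Adgrf1 and Adgrl4 without either M-133- sample in turn (adjusted p 0.104 to 0.19), and that of Adgrl3 without M-133- sample 2 (adjusted p 0.0547). Lpar2 lost the call without M+133+ sample 1, 3 or 4, Adgrl4 without sample 1 or 4, at adjusted p of 0.0522 to 0.086.

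Of 57 receptors for hormones and peptides none was called higher and 3 fell (5.26%, near the 5.16% of all genes). These were the glucagon receptor Gcgr (-5.73), and Calcrl (-5.79) and its partner Ramp2 (-4.56), which form the adrenomedullin receptor. The secretin receptor Sctr, which drives duct bicarbonate secretion, was at 2.58 (adjusted p = 0.429). Its level was not well above background on any M-133- array. The bile acid receptor Gpbar1 was at -0.37 (adjusted p = 0.864). The call of Gcgr ended without M-133- sample 1 (adjusted p 0.0795), and those of Calcrl and Ramp2 without either M-133- sample in turn (adjusted p 0.0912 to 0.167). Ramp2 lost the call without M+133+ sample 1, 2 or 3, at adjusted p of 0.0562 to 0.0656.

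Of 52 receptor tyrosine kinases 9 were called higher and 9 lower, 17.3% in each direction. Their median of 0.19 was -0.67 with normexp and -0.11 with slide as a fixed block. The collagen receptors changed places. Ddr1 measured 3.83, 3.79, 4.03 and 3.85 in M+133+ cells against -4.65 and -3.51 in M-133- cells, a difference of 7.96 ± 0.75 (SE, adjusted p = 1.91e-05), whereas Ddr2 measured -7.97, -2.28, -7.67 and -7.31 in M+133+ cells against 1.73 and 1.43 in M-133- cells, a difference of -7.89 ± 1.40 (SE, adjusted p = 0.00249). M+133+ sample 2 was above the other 3 for Ddr2, and still below both M-133- samples. Of the growth factor receptors, Erbb4 (at least 35.3-fold), the hepatocyte growth factor receptor Met (4.75) and Fgfr2 (3.45) rose and held with each sample left out. Fgfr3 (5.06), Fgfr1 (2.80), Epha7 (4.73) and Epha2 (2.52) rose too. The ninth was Csf1r, the macrophage colony-stimulating factor receptor, which measured 0.30, 1.21, 1.02 and 2.88 in M+133+ cells against -4.24 and -4.95 in M-133- cells, a difference of 5.95 ± 1.45 (SE, adjusted p = 0.0183); its other probes gave 4.26 and 2.17. Of the 12 macrophage markers Csf1r was the only one called higher, and Clec4f was called lower. Axl measured -3.68, -9.21, -7.53 and -5.44 in M+133+ cells against 1.62 and 1.14 in M-133- cells, a difference of -7.85 ± 1.28 (SE, adjusted p = 0.00142), and the related Mertk differed by -6.99. Of the receptors known from vessels and their support cells, Tie1 (-6.27), Tek (-6.08), Kdr (-4.98), Pdgfra (-5.94) and Pdgfrb (-6.13) fell. Kit fell by 4.29 on the log2 scale. The calls of Fgfr3, Epha2 and Pdgfrb ended without M-133- sample 1 (adjusted p 0.0889 to 0.343), those of Fgfr1, Csf1r, Kdr and Kit without either M-133- sample in turn (adjusted p 0.0571 to 0.163), and those of Epha7 and Pdgfra without M-133- sample 2 (adjusted p 0.308 to 0.465). Fgfr1 lost the call without M+133+ sample 1, Epha7 without sample 1, 2 or 3, Epha2 without sample 1, 2 or 4, Kdr without sample 4, at adjusted p of 0.050 to 0.0851.

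Cytokine receptors had 2 of 53 called higher and 7 lower. Ifnlr1, the interferon lambda receptor chain that epithelia carry, measured -0.53, -1.11, -1.30 and -3.98 in M+133+ cells against -7.73 and -8.54 in M-133- cells, a difference of 6.40 ± 1.12 (SE, adjusted p = 0.00218). Ifnlr1 was well above background on none of the 3 M-133- arrays, so that the difference is at least 18.8-fold. The other increase, Il1rn (4.56), is the secreted antagonist of the interleukin-1 receptor and not a receptor. The decoy receptor Il13ra2 measured -5.05, -4.57, -8.94 and -8.39 in M+133+ cells against 0.17 and 0.86 in M-133- cells, a difference of -7.25 ± 1.22 (SE, adjusted p = 0.00177). The prolactin receptor Prlr differed by -6.48 ± 1.22 (SE, adjusted p = 0.00352), with a further probe at -1.62, and Il27ra (-6.01), Lepr (-3.92) and Il6st (-3.81) also fell. The calls of Il1rn and Il27ra ended without M-133- sample 2 (adjusted p 0.0513 to 0.247), that of Lepr without either M-133- sample in turn (adjusted p 0.104 to 0.173), and that of Il6st without M-133- sample 1 (adjusted p 0.101). Lepr lost the call without M+133+ sample 1 or 4, at adjusted p of 0.0558 to 0.0584.

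Of 43 nuclear receptors none was called higher and 3 were called lower (6.98%, beside 5.16% of all genes): the xenobiotic sensor CAR (Nr1i3, -4.64), Nr2f1 (-6.18) and Rxra (-1.46). The hepatocyte regulator Hnf4a was at -2.30 (adjusted p = 0.0586), and the bile acid receptor FXR (Nr1h4) at -0.10 (adjusted p = 0.967). The calls of Nr1i3, Nr2f1 and Rxra ended without either M-133- sample in turn (adjusted p 0.0957 to 0.266). Nr1i3 lost the call without M+133+ sample 3, Rxra without sample 1, 2, 3 or 4, at adjusted p of 0.0538 to 0.103.

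Of 26 ETS factors 2 rose and 4 fell, and of the 51 factors listed as grainyhead, TEAD, TFAP2, RUNX, NFI and zinc finger factors 7 rose and 3 fell. Elf3, an epithelial ETS factor, measured 3.09, 2.58, 2.12 and 1.97 in M+133+ cells against -7.82 and -8.52 in M-133- cells, a difference of 10.61 ± 1.48 (SE, adjusted p = 4.63e-04). Elf3 was well above background on none of the 3 M-133- arrays, so that the difference is at least 339-fold. The Elf3 probe lies at chr1:137150328-137150387 in the array annotation (mm9). The related Ehf measured 1.97, 2.96, 0.87 and 1.85 in M+133+ cells against -3.12 and -3.31 in M-133- cells, a difference of 5.13 ± 0.74 (SE, adjusted p = 5.69e-04), with larger differences of 9.11 and 8.33 at its other probes. Grhl2, a grainyhead factor that maintains epithelial junctions, measured 2.54, 2.57, 2.59 and 2.95 in M+133+ cells against -4.42 and -2.62 in M-133- cells, a difference of 6.18 ± 0.74 (SE, adjusted p = 1.48e-04). Ovol2, a repressor of mesenchymal genes, differed by 7.16 ± 1.19 (SE, adjusted p = 0.00162), although a second probe gave 0.98. The Ovol2 probe read was well above background on none of the 3 M-133- arrays, so that the difference at that probe is at least 100-fold. The second probe was well above background in both M-133- samples. The 5 further members of the second list called higher were Grhl1 (5.58), Tfcp2l1 (5.39), Ikzf2 (3.36), Ikzf4 (3.37) and Tead1 (1.57). In the opposite direction, the mesenchymal repressors of epithelial genes Zeb1 (-3.64) and Zeb2 (-4.75) fell. Further probes of Zeb2 ran from -8.70 to -0.98. The calls of Grhl1, Ikzf2, Tead1 and Zeb1 ended without M-133- sample 1 (adjusted p 0.0633 to 0.318), those of Tfcp2l1 and Zeb2 without either M-133- sample in turn (adjusted p 0.0547 to 0.19), and that of Ikzf4 without M-133- sample 2 (adjusted p 0.0823). Ikzf2 and Tead1 lost their calls without M+133+ sample 1, at an adjusted p of 0.0503.

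Of 37 forkhead factors 5 rose and none fell, of 23 Kruppel-like and SP factors 3 rose and 1 fell, and of 17 SOX factors 1 rose and 3 fell. Sox9, which marks the embryonic ductal plate, measured 4.37, 4.27, 4.34 and 4.98 in M+133+ cells against -1.11 and -0.27 in M-133- cells, a difference of 5.18 ± 0.64 (SE, adjusted p = 1.81e-04) that held with each sample left out. Onecut1 (HNF6) differed by 3.74. The forkhead factors that rose were Foxj1 (6.78), Foxa1 (5.58), Foxp2 (4.72), Foxo6 (4.58) and Foxa2 (2.88). Foxa1 and Foxa2 open liver chromatin in development, and Foxj1 drives motile cilia. The secretory pathway factor Creb3l4 measured -1.12, -2.91, 0.82 and -2.50 in M+133+ cells against -6.47 and -8.34 in M-133- cells, a difference of 5.98 ± 1.00 (SE, adjusted p = 0.00165). Creb3l4 was well above background on none of the 3 M-133- arrays, so that the difference is at least 23.2-fold. Klf5 (4.21), Klf11 (3.60) and Klf6 (1.80) rose as well. A further probe of Klf5 gave 7.25 and a further probe of Klf11 gave 1.04. Gata6 was called at 3.84, but 1 of its 3 probes gave -0.01. The calls of Onecut1, Foxa1, Klf5, Klf11 and Gata6 ended without either M-133- sample in turn (adjusted p 0.0559 to 0.331), those of Foxj1 and Foxo6 without M-133- sample 1 (adjusted p 0.217 to 0.364), and those of Foxp2, Foxa2 and Klf6 without M-133- sample 2 (adjusted p 0.0956 to 0.301). Onecut1 and Klf11 lost their calls without M+133+ sample 1, 2, 3 or 4, Foxp2 without sample 4, Foxo6 without sample 1, Gata6 without sample 1, 2 or 4, at adjusted p of 0.0513 to 0.0859.

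Among the factors called lower were several known from blood vessels. Gata2, an endothelial and blood factor, measured -4.99, -8.91, -8.91 and -8.65 in M+133+ cells against 1.58 and 2.20 in M-133- cells, a difference of -9.76 ± 1.70 (SE, adjusted p = 0.00215). Gata2 was well above background on 1 of the 5 M+133+ arrays. Erg, an endothelial ETS factor, measured -7.60, -2.04, -9.12 and -8.95 in M+133+ cells against 2.53 and 2.46 in M-133- cells, a difference of -9.42 ± 2.47 (SE, adjusted p = 0.0271). Elk3 (-3.62) fell and held, and Fli1 (-4.89), Ets1 (-3.93), Sox18 (-6.51), Sox17 (-5.47), Sox7 (-3.11) and Lyl1 (-5.50) followed. Of 29 HOX factors 6 fell and none rose, with a median of -1.25. Hoxa3 (-7.21) held with each sample left out, and Hoxb2 (at least 54.1-fold) and Hoxb7 (-7.53) were of similar size. The homeobox factor Hlx of liver mesenchyme (-6.83) and the mesenchymal factor Twist1 (at least 18.6-fold) also fell. The calls of Erg, Fli1, Ets1, Sox17, Sox7, Lyl1 and Hoxb2 ended without either M-133- sample in turn (adjusted p 0.0547 to 0.234), those of Sox18 and Twist1 without M-133- sample 2 (adjusted p 0.0652 to 0.0689), and those of Hoxb7 and Hlx without M-133- sample 1 (adjusted p 0.0841 to 0.0957). Erg and Fli1 lost their calls without M+133+ sample 1, 3 or 4, Ets1 and Sox17 without sample 1, 2 or 3, Sox7 without sample 2, 3 or 4, at adjusted p of 0.0501 to 0.11.

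Of the factors that serve hepatocyte metabolism, Atf5, a stress-response factor, fell and held (-2.79), and Creb3l3, which drives fasting genes, measured -2.59, -3.55, -2.49 and -3.26 in M+133+ cells against 2.14 and 2.34 in M-133- cells, a difference of -5.21 ± 1.42 (SE, adjusted p = 0.0332). Cebpa (-2.33) fell. The GATA factor Gata4 (-3.63), which is not placed among these hepatocyte factors, fell as well. The calls of Creb3l3, Cebpa and Gata4 ended without either M-133- sample in turn (adjusted p 0.0527 to 0.267). Creb3l3 lost the call without M+133+ sample 1, 2, 3 or 4, Cebpa without sample 1, Gata4 without sample 1 or 3, at adjusted p of 0.0503 to 0.0686.

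**Figure D4:**
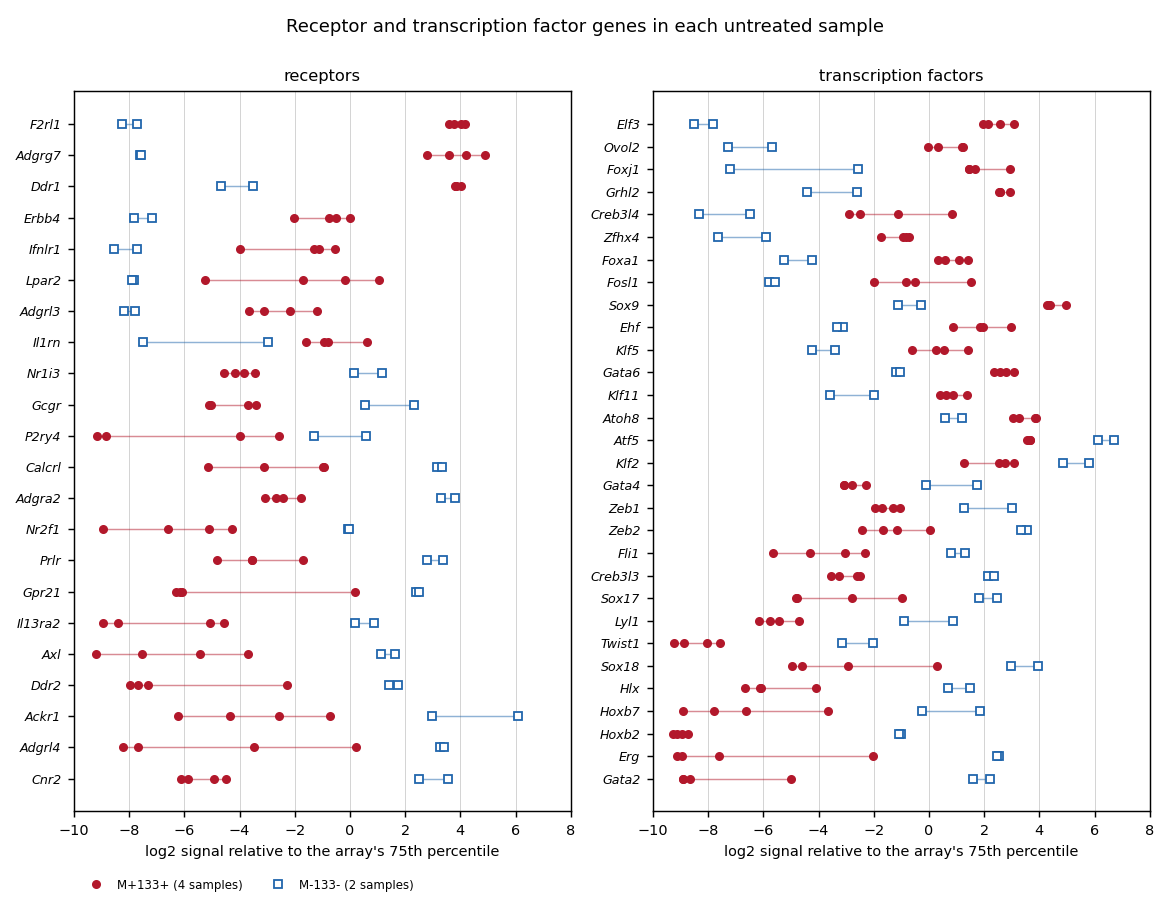
Log2 signal relative to the array's 75th percentile for named receptor genes (left panel) and transcription factor genes (right panel), ordered by difference: filled circles are the 4 M+133+ samples and open squares the 2 M-133- samples. F2rl1 and Adgrg7 head the receptors and Elf3 the factors, while Cnr2 and Gata2 are at the foot of their panels.

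Of 19 genes of the urea cycle and nitrogen handling 10 fell and none rose (median -2.65), and of 56 amino acid breakdown genes 31 fell and none rose (median -3.13), beside a median of -0.07 over all genes. Otc, ornithine transcarbamylase, measured -6.12, -4.99, -4.76 and -5.66 in M+133+ cells against 3.72 and 3.10 in M-133- cells, a difference of -8.79 ± 1.47 (SE, adjusted p = 0.00163). The Otc probe lies at chrX:9897267-9897326 in the array annotation (mm9). Ass1, argininosuccinate synthetase, measured -2.62, -0.36, -2.65 and -0.85 in M+133+ cells against 6.54 and 6.06 in M-133- cells, a difference of -7.92 ± 0.91 (SE, adjusted p = 1.11e-04). Cps1 (-6.95), which starts the cycle, and Arg1 (-6.20), which ends it, moved the same way, with the glutaminase of liver Gls2 at -7.09. Glutamine synthetase (Glul), by contrast, was at -1.47 (adjusted p = 0.231). The calls of Cps1 and Arg1 ended without either M-133- sample in turn (adjusted p 0.131 to 0.333), and that of Gls2 without M-133- sample 1 (adjusted p 0.0665). Cps1 lost the call without M+133+ sample 1, 2, 3 or 4, Arg1 without sample 1, 2 or 3, at adjusted p of 0.0552 to 0.111.

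In amino acid breakdown, tryptophan, histidine and tyrosine enzymes were among the largest falls. Tdo2, tryptophan dioxygenase, measured -4.17, -3.38, -4.11 and -2.57 in M+133+ cells against 7.61 and 4.57 in M-133- cells, a difference of -9.65 ± 1.00 (SE, adjusted p = 4.73e-05). Kmo, kynurenine monooxygenase, measured -8.73, -5.96, -6.65 and -8.95 in M+133+ cells against 1.53 and 1.92 in M-133- cells, a difference of -9.29 ± 1.29 (SE, adjusted p = 4.46e-04), and Aadat (-7.94) and Ido2 (-6.25) of the same route also fell. For histidine, Hal differed by -9.47, Ftcd by -8.37 and Uroc1 by -7.71. For tyrosine, Hpd (-8.01), Hgd (-6.73) and Tat (-6.11) fell and held. The methyl-group enzymes Gnmt (-7.90), Bhmt (-7.37) and Mat1a (-5.97) and the glyoxylate enzymes Agxt (-7.23) and Agxt2 (at least 99.5-fold) fell likewise. The call of Hal ended without M-133- sample 1 (adjusted p 0.0684), and those of Ftcd, Uroc1, Mat1a and Agxt without either M-133- sample in turn (adjusted p 0.0644 to 0.152).

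Bile acid synthesis and cholesterol export had 17 of 28 genes lower and none higher, with a median of -4.50 (-4.16 with genes at background set to their bound). Apoc3 measured -3.39, -0.49, -1.76 and -2.52 in M+133+ cells against 5.80 and 6.07 in M-133- cells, a difference of -7.98 ± 1.12 (SE, adjusted p = 4.72e-04). Apoa1, the main protein of high density lipoprotein, measured -2.45, -2.48, -2.71 and -0.76 in M+133+ cells against 5.35 and 5.40 in M-133- cells, a difference of -7.47 ± 1.12 (SE, adjusted p = 7.61e-04); M+133+ sample 4 was above the other 3. The sterol hydroxylases Cyp27a1 (-7.33) and Cyp8b1 (at least 5.1-fold) fell; Cyp27a1 held with each sample left out, and Cyp8b1 did not pass the filter without M-133- sample 1 and was not tested there. Apob differed by -3.01 and Apoe, which macrophages and stellate cells also make, by -1.34. The call of Apob ended without M-133- sample 2 (adjusted p 0.0585), and that of Apoe without either M-133- sample in turn (adjusted p 0.146 to 0.278). Apoe lost the call without M+133+ sample 1, 2, 3 or 4, at adjusted p of 0.0634 to 0.103.

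Of 21 gluconeogenesis and glycogen genes 5 fell, and of 25 glycolysis genes 5 fell and 1 rose. Gys2, liver glycogen synthase, measured -6.06, -4.59, -5.09 and -5.10 in M+133+ cells against 4.02 and 2.63 in M-133- cells, a difference of -8.54 ± 1.22 (SE, adjusted p = 5.45e-04). The gluconeogenic enzymes Fbp1 (-5.04) and G6pc (-4.06) fell. The single glycolysis gene to rise was the platelet-type phosphofructokinase Pfkp (1.98, with further probes at 0.48 and 1.68). Tktl1, a transketolase-like gene, rose among the pentose phosphate genes (5.48). The calls of G6pc, Pfkp and Tktl1 ended without either M-133- sample in turn (adjusted p 0.0934 to 0.348). G6pc lost the call without M+133+ sample 1, 3 or 4, Pfkp and Tktl1 without sample 1, 2, 3 or 4, at adjusted p of 0.0538 to 0.116.

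Of 43 fatty acid oxidation genes 13 fell and none rose (median -1.75). Acot12, an acetyl-CoA thioesterase, measured -7.62, -6.97, -7.43 and -7.42 in M+133+ cells against 2.79 and 1.30 in M-133- cells, a difference of -9.41 ± 1.29 (SE, adjusted p = 4.07e-04). Acot12 was well above background on none of the 5 M+133+ arrays, so that the difference is at least 460-fold. The medium chain dehydrogenase Acadm (-2.91) and the peroxisomal enzymes Ehhadh (-3.54), Phyh (-3.14) and Pecr (-4.03) fell, while Hadha, of the same pathway, was at -0.09 (adjusted p = 0.971). Of 80 respiratory chain subunits 16 fell and none rose, in a narrow band around a median of -1.04; with quantile normalization the median was -0.20. Of 30 tricarboxylic acid cycle genes 5 fell and none rose, led by Sdhb (-3.48), Idh1 (-3.04) and Sdha (-2.53). Ribosomal protein genes, as housekeeping comparison, had a median of -0.47 with 6 of 81 lower, which turned to 0.47 with quantile normalization. The calls of Acadm and Ehhadh ended without M-133- sample 1 (adjusted p 0.0584 to 0.399), and those of Sdhb and Idh1 without either M-133- sample in turn (adjusted p 0.10 to 0.242). Ehhadh lost the call without M+133+ sample 1, 2 or 4, Sdhb without sample 1, 3 or 4, Idh1 without sample 3 or 4, at adjusted p of 0.0506 to 0.0856.

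Fatty acid desaturases changed places. Scd1 measured -1.26, -1.70, -1.57 and -0.76 in M+133+ cells against 4.79 and 4.76 in M-133- cells, a difference of -6.10 ± 0.83 (SE, adjusted p = 3.83e-04), while Scd2 measured 3.81, 3.64, 3.08 and 3.59 in M+133+ cells against 0.46 and -0.12 in M-133- cells, a difference of 3.36 ± 0.53 (SE, adjusted p = 0.00108). Both held with each sample left out. Of 45 sterol and fatty acid synthesis genes 6 fell and 2 rose; the other increase was Elovl7 (1.60) and the elongase Elovl2 fell (-4.15). The calls of Elovl7 and Elovl2 ended without either M-133- sample in turn (adjusted p 0.115 to 0.328). Elovl7 lost the call without M+133+ sample 1, 2 or 4, Elovl2 without sample 1, 2 or 3, at adjusted p of 0.0862 to 0.117.

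Of 77 genes for cytochromes P450 and their electron donors, enzymes of drug and steroid metabolism, 32 fell, 2 rose and 43 were not called (median -1.64). Cyp2c40 measured -4.16, -8.14, -6.79 and -8.95 in M+133+ cells against 3.93 and 3.29 in M-133- cells, a difference of -10.62 ± 1.26 (SE, adjusted p = 1.39e-04). Cyp2c40 was well above background on 3 of the 5 M+133+ arrays. The Cyp2c40 probe lies at chr19:39841822-39841881 in the array annotation (mm9). Cyp2f2 differed by -9.73, Cyp2e1 by -6.64, Cyp3a11 by -7.46 and Cyp4a14 by -6.44. The Cyp2c, Cyp2d, Cyp3a and Cyp4a genes have near-identical copies, so a probe can read more than 1 of them and single values are uncertain. Against this, Cyp2s1, an epithelial P450, measured 3.23, 1.63, -1.31 and 2.35 in M+133+ cells against -7.85 and -7.47 in M-133- cells, a difference of 9.13 ± 1.28 (SE, adjusted p = 4.73e-04). Cyp2s1 was well above background on none of the 3 M-133- arrays, so that the difference is at least 174-fold. The other increase was Cyp2c65 (4.29). The call of Cyp2f2 ended without either M-133- sample in turn (adjusted p 0.0723 to 0.0724), and those of Cyp2e1 and Cyp2c65 without M-133- sample 1 (adjusted p 0.144 to 0.183).

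Of 54 conjugating enzymes 23 fell and 3 rose (median -2.10). Ugt1a9 measured -8.60, -8.50, -8.00 and -8.95 in M+133+ cells against 0.50 and 2.94 in M-133- cells, a difference of -10.23 ± 1.00 (SE, adjusted p = 2.51e-05), with the caution that Ugt1a genes share exons. Ugt1a9 was well above background on none of the 5 M+133+ arrays, so that the difference is at least 367-fold. The sphingolipid transferase Ugt8a, which makes galactosylceramide, measured 0.76, 1.26, 0.16 and -0.41 in M+133+ cells against -3.62 and -3.45 in M-133- cells, a difference of 3.98 ± 0.71 (SE, adjusted p = 0.0026). The microsomal transferase Mgst2 (3.68) and Sult4a1 (5.26, with a further probe at -0.55) rose also. Of 42 aldehyde, alcohol and retinoid genes 9 fell, among them the alcohol dehydrogenase Adh4 (-5.35), and none rose. The call of Mgst2 ended without M-133- sample 1 (adjusted p 0.462), and that of Sult4a1 without either M-133- sample in turn (adjusted p 0.0616 to 0.134). Mgst2 lost the call without M+133+ sample 1, 2 or 4, at adjusted p of 0.0683 to 0.107.

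Enzymes of sphingolipids and of mucin-type sugar chains gave increases in 4 of 40 and 7 of 83 genes, and falls in 3 and 8. Degs2, which makes phytoceramide, measured 1.96, 1.77, 0.93 and 0.52 in M+133+ cells against -7.70 and -8.26 in M-133- cells, a difference of 9.27 ± 0.90 (SE, adjusted p = 2.48e-05). Degs2 was well above background on none of the 3 M-133- arrays, so that the difference is at least 153-fold. Sptssb, a small subunit of serine palmitoyltransferase, measured 0.49, 1.61, -0.57 and 1.26 in M+133+ cells against -7.43 and -6.20 in M-133- cells, a difference of 7.51 ± 1.12 (SE, adjusted p = 7.09e-04). Galnt3, which starts mucin-type chains, measured 0.26, -0.90, -0.63 and -0.26 in M+133+ cells against -7.64 and -8.25 in M-133- cells, a difference of 7.56 ± 0.67 (SE, adjusted p = 1.16e-05). Galnt3 was well above background on none of the 3 M-133- arrays, so the size of that difference rests on signals close to background. The branching enzyme Gcnt2 rose (6.54). Chst2, a sulfotransferase (-7.22), and the lipid phosphatases Plpp1 (-5.61) and Plpp3 (-4.62) fell. Among carbonic anhydrases Car9 rose (at least 28.4-fold) and the muscle and liver form Car3 fell (-7.01, with a further probe at -0.87), while Car2, known in duct cells, was at 0.45 (adjusted p = 0.785). Of 38 prostanoid genes 6 fell and none rose, led by prostacyclin synthase (Ptgis, at least 53.4-fold) and Ptgs2 (-6.78). The call of Gcnt2 ended without M-133- sample 1 (adjusted p 0.0902), and those of Plpp3, Car9 and Ptgs2 without either M-133- sample in turn (adjusted p 0.112 to 0.161). Plpp3 lost the call without M+133+ sample 4, Car9 without sample 1 or 3, Ptgs2 without sample 3 or 4, at adjusted p of 0.0538 to 0.0671.

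**Figure D5:**
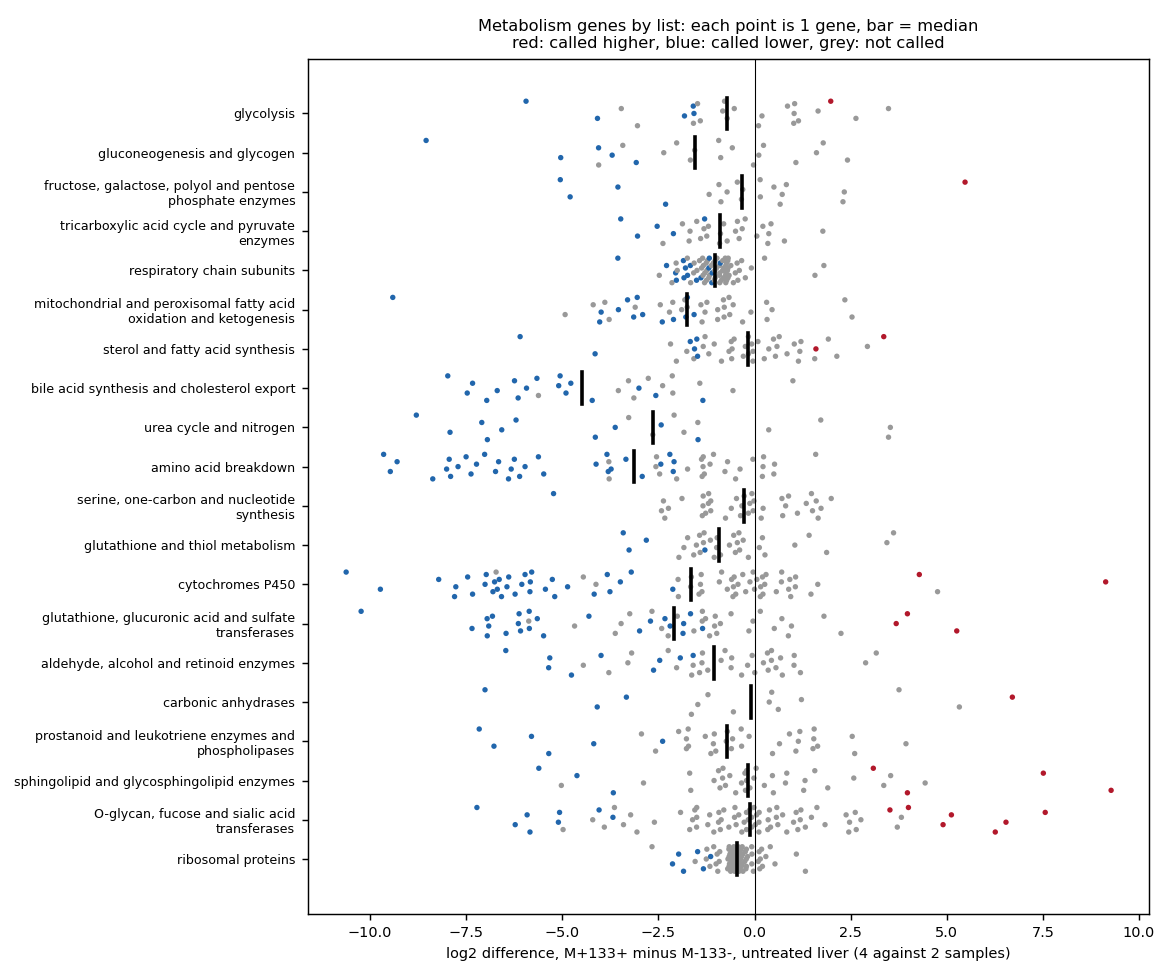
Log2 difference (M+133+ minus M-133-) of every tested metabolic gene, by list: each point is 1 gene, the bar is the list's median, and colour marks genes called higher (red), called lower (blue) or not called (grey). Bile acid synthesis, urea cycle and amino acid breakdown lie to the left with medians of -4.50, -2.65 and -3.13, and the respiratory chain forms a narrow band around -1.04.

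Several of the largest differences on the array fell outside these functions. Tspan8, a tetraspanin of epithelial surfaces, measured 5.49, 5.33, 5.08 and 5.31 in M+133+ cells against -4.16 and -6.20 in M-133- cells, a difference of 10.48 ± 0.85 (SE, adjusted p = 5.99e-06). Rassf9 (at least 550-fold), Ddit4l (11.19), Nipal2 (at least 316-fold) and osteopontin (Spp1, 10.46) rose by similar amounts; 2 further probes of Nipal2 gave 3.86 and 0.19. Paqr9 (-9.99), the aldehyde oxidase Aox3 (-9.78) and Tmem47 (-9.74) fell with each sample left out. The plasma proteins Serpina3n (-10.09) and Orm1 (-9.69) and the phospholyase Etnppl (-9.75) fell too. The call of Serpina3n ended without M-133- sample 1 (adjusted p 0.0504), and those of Orm1 and Etnppl without either M-133- sample in turn (adjusted p 0.0604 to 0.133).

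Promoters were read for 4 of the genes with the largest differences, as RefSeq windows (GRCm38.p6) of 250 bases before the gene's start, 5′ to 3′ on the gene's strand. They were chosen after their values and matches were seen, to show what such windows hold. Capitals mark a match to a searched motif: the FOXA motif TGTTTAC in Tspan8 at chr10:115817034-115817283, plus strand, the GATA motif AGATAA in Adgrg7 at chr16:56795859-56796108, minus strand, the HNF4A motif CAAAGTCCA in Cyp2c40 at chr19:39812815-39813064, minus strand, and, on the opposite strand, the GATA motif in Ugt1a9 at chr1:88070529-88070778, plus strand.
Tspan8: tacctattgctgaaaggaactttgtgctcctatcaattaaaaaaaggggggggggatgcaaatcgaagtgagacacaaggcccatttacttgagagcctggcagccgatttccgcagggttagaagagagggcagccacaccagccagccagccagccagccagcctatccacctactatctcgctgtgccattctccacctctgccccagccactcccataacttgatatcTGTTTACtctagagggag
Adgrg7: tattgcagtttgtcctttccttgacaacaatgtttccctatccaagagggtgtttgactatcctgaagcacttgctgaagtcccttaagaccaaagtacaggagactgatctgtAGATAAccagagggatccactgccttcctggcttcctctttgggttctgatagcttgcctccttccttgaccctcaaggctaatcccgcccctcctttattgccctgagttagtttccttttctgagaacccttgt
Cyp2c40: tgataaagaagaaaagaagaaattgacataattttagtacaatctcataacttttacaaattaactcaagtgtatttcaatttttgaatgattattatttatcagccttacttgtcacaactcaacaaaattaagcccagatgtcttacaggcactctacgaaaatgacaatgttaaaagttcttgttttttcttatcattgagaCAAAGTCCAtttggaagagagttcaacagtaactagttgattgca
Ugt1a9: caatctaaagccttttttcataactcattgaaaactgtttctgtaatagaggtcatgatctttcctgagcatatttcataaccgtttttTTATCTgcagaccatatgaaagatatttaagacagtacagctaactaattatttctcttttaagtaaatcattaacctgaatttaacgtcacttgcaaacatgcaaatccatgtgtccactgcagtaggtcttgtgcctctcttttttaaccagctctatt
The last base of each match, read on the gene's strand, lies 12 bases before the start in Tspan8, 131 in Adgrg7, 37 in Cyp2c40, and 156 in Ugt1a9.

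Both strands were searched, motifs were allowed to overlap, and a match describes the letters only. Windows existed for 27025 genes, for 72 of the 105 list members called higher and for 246 of the 320 called lower. Shares are given beside those of all windows and of the 1771 list members tested that have one. The HNF4A letters stood in 0.451% of all windows and 1.19% of those of tested members, in 9 (3.66%) of those called lower and in 2 (2.78%) of those called higher. The 9 were Aadat, Agxt2, B3gnt3, Cyp8b1, Cyp2c40, Cyp2c70, Cyp3a11, Cyp3a16 and Cyp3a41a, of which the Cyp3a genes are close copies of one another. The FOXA letters stood in 3.54% of all windows, 3.16% of those of tested members, 15 (6.10%) of those lower and 3 (4.17%) of those higher. The 15 include Cyp3a11, Cyp3a16, Cyp3a41a and Cyp3a44, and Cyp2c38 and Cyp2c39, close copies within each family, so they are not independent genes. For GATA the same 4 shares were 11.4%, 8.98%, 12.2% and 6.94%, and for the ETS letters AGGAAGT 8.80%, 9.60%, 8.13% and 13.9%. The grainyhead letters AACCNGTT were in 2.00% of all windows, 2.43% of those of tested members, 2.85% of those lower and 2.78% of those higher.

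The same sorts after DDC gave 3012 called genes (12.9% of those tested). Of 173 genes chosen by the naming rule in untreated liver, 167 had the same sign after DDC and 135 were called in the same direction. A test of the difference between the 2 sort effects called 60 genes of all tested (0.257%), 4 of them among the 173. Tspan8 differed by 3.85 ± 0.70 (SE, adjusted p = 0.00175) after DDC, smaller than before by 6.63 ± 1.10 (SE, adjusted p = 0.0235). Spp1 differed by 1.67 ± 0.66 (SE, adjusted p = 0.118) after DDC, smaller by 8.78 ± 1.04 (SE, adjusted p = 0.00206), and Ddr1 by 2.56 ± 0.61 (SE, adjusted p = 0.0116), smaller by 5.40 ± 0.97 (SE, adjusted p = 0.0357). Atoh8, a basic helix-loop-helix factor, went from 2.62 ± 0.67 (SE, adjusted p = 0.0242) to -1.96 ± 0.55 (SE, adjusted p = 0.0276), and the effects differed by 4.58 ± 0.87 (SE, adjusted p = 0.0433). Its call in untreated liver ended without either M-133- sample in turn (adjusted p 0.0978 to 0.181) and without M+133+ sample 3 or 4 (adjusted p 0.060). For the remaining named genes no difference between the effects passed the threshold, which does not show that they were equal.

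The authors' deposited table of M-133- over M+133+ ratios was read beside these results. Of the 2050 called genes 2042 had a row in the authors' deposited table, 2029 of them in the same direction and 1777 with a false discovery rate under 5% there. That table belongs to the same series, and the genes were picked because they were called here. The counts are therefore no independent support. Normexp background correction, which damps dim signals, left all 173 named genes with the same sign and made 63 of their differences more than 1.5 times smaller; the median size of the 173 differences was 5.94 without it and 4.22 with it.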

How the data were processed

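RNA of 6 sorted samples from untreated liver was read on 8 one-colour Agilent arrays. The deposited values are Cy3 processed signal intensity, background-subtracted by Agilent Feature Extraction 10.5.1.1 per the file headers, which also name the mm9 annotation. The submitters' processing notes name limma. Intensities were taken to log2 minus the log2 of the array's 75th percentile over non-control probes, outlier-flagged spots were left out, and repeat arrays of a sample were averaged. A probe was tested where at least 0.5 of a group's samples were well above background, and a gene was read from its brightest such probe. limma 3.58.1 (R 4.3.3) fitted 4 groups over 14 samples with an intensity trend, two-sided, with Benjamini-Hochberg adjustment over 23306 genes. No array was dropped; 7 tested genes had a missing value among the 6 samples, none of them named by the rule. The number of arrays limits the precision. The fit was checked on simulated data.

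Of 41174 probes, 32831 were matched to RefSeq names (GRCm38.p6), 26690 by accession, 5189 by symbol and 952 by synonym, and 8343 kept the name in the file. Where a fold is given as "at least", the probe read was well above background on no array of a group. Such a fold is taken against the lowest level well above background on each array. Genes were named by a rule: Prom1, then in each list the 2 largest increases and 2 largest decreases among called genes whose samples did not overlap, then the 10 largest each way; some genes that the rule names are not reported here, and stay in the counts. The members and lists were chosen with earlier results of these data known, and further members were named after their values were seen. The authors' deposited table holds signed fold ratio scores of M-133- over M+133+ and a false discovery rate in percent; how it was made is not given in the sources used here. Alternatives were quantile normalization, normexp background correction (offset 50), no filter, the mean of a gene's probes, single repeat arrays, only the untreated samples, no intensity trend, slide, replicate number or title code as a block, and each sample left out.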

Additional observations from a re-analysis of the deposited data

Results flagged for a closer look

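Among the 173 named genes, 16 had 1 M+133+ sample apart from the other 3 by a gap above Dixon's critical value for 4 samples; chance alone sets apart about 1 in 20 groups. The 2 M-133- samples are too few for this rule.

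Sample 1 stood apart for Gata2 (-4.99 against -8.91 to -8.65) and Paqr9 (-6.66 against -9.38 to -8.95). Sample 2 stood apart for Ddr2 (-2.28 against -7.97 to -7.31), Tmem47 (-3.19 against -8.82 to -8.09) and Orm1 (-1.03 against -7.42 to -6.43). Sample 3 stood apart for Slc7a4 (-1.82 against -2.84 to -2.77), Slc47a1 (-1.51 against -9.13 to -8.67), Slc25a24 (2.56 against 2.88 to 2.90), Slc25a47 (-7.17 against -2.51 to -1.84), Gpr21 (0.17 against -6.32 to -6.08) and Sult4a1 (-3.12 against 0.83 to 1.33). Sample 4 stood apart for Foxj1 (2.93 against 1.45 to 1.67), Sox9 (4.98 against 4.27 to 4.37), Grhl2 (2.95 against 2.54 to 2.59), Elovl2 (-0.064 against -4.65 to -4.14) and Apoa1 (-0.76 against -2.71 to -2.45). For Sox9 and Grhl2, duct and epithelial transcription factors, all 4 levels stayed far above both M-133- samples. For Slc47a1, Slc25a24, Gpr21, Ddr2, Gata2, Elovl2, Apoa1, Sult4a1, Paqr9, Tmem47 and Orm1 the sample apart was nearer to the mean of the M-133- samples than the others were.

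The sort difference differed between untreated and DDC livers, by a limma interaction term, for 4 named genes: it was larger without DDC by 8.78 for osteopontin (Spp1), 6.63 for Tspan8 and 5.40 for Ddr1, and for Atoh8, which changed sign, the 2 differences were 4.58 apart.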

How the results depend on the processing

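The 173 named genes were refitted under 18 alternatives. In 2487 refits the call stayed with its direction, in 626 it was lost, and in 1 the sign turned: with only the untreated samples Slc16a10 was at -0.83 (adjusted p = 0.66), where another of its probes was read. Calls were lost for 7 genes with quantile normalization, for 26 with normexp, and for 50 or 12 where slide entered as a fixed or a random block, for 72 with replicate number and 85 with the title's leading code as a block, and for 98 without M-133- sample 1 and 74 without sample 2. In all, 57 genes were called in every alternative.

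With replicate number as a block the total was 834 called genes (394 higher, 440 lower), with 26 transporters, 25 receptors, 18 transcription factors and 104 metabolic genes. With the title's leading code as a block it was 824 (343 higher, 481 lower), with 27 transporters, 16 channels and pumps, 27 receptors, 16 transcription factors and 97 metabolic genes. Deviations of same-numbered samples from their group means correlated between -0.0619 and 0.028. For samples sharing the title's leading code the correlations ran from -0.01278 to 0.1125. The deviations of the 2 untreated M-133- samples mirror each other, so these values do not decide whether samples were paired. Genes higher numbered 529 with normexp and 1323 with only the untreated samples, and metabolic genes called 133 with slide as a fixed block.

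Without single samples the total ranged from 819 to 1656, genes higher from 428 to 699 and genes lower from 391 to 961. The ranges were 23 to 51 for transporters, 15 to 29 for channels and pumps, 25 to 50 for receptors, 19 to 47 for transcription factors and 68 to 188 for metabolic genes. Each lowest value came without M-133- sample 1, the one whose macrophage markers stood higher and whose array had a 75th percentile of 602.8 intensity units, the lowest of the 8. Signals close to background carry no order, which limits differences of genes dim in 1 sort.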
